A study of Mus musculus with 4 samples.

Results

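Respiratory complex I genes were followed in mouse hearts taken 1 week after TAC, an operation that constricts the transverse aorta so that the left ventricle pumps against a raised pressure. The members were all genes whose symbol begins with Nduf and that had a probe set with a single gene symbol in the array annotation, which gave 43 genes of 19938 named on the array. Of these, 34 encode structural subunits of complex I, 7 (Ndufaf1 to Ndufaf7) encode assembly factors, and 2 (Ndufa4 and Ndufa4l2) carry the Nduf name but are kept apart because they are not structural subunits of the complex. Both are Ndufa symbols, and with them the subunit names come to 36. All 43 genes passed the filter on dim signals that left 14914 genes tested. Ndufb1, Ndufb4 and Ndufaf8 were not analysed here.

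Total RNA of 4 heart samples was hybridised to 4 Affymetrix Mouse Gene ST arrays, 1 for a wild type heart (wildtype in the labels) and 3 for hearts without MAFbx (MAFbx KO). MAFbx, or atrogin-1, is a muscle F-box protein encoded by Fbxo32, the substrate-binding part of a ubiquitin ligase. All 4 hearts had the operation, no sham-operated heart was analysed here, and the sources used here give no strain, age, sex or form of the deleted allele. The labels do not say outright that each knockout sample is a separate animal, so p-values measure only the spread between these samples, part of which may be technical. With 1 wild type array that group has no spread of its own.

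Complex I takes electrons from NADH, passes them along a flavin and a chain of iron-sulphur clusters in an arm that reaches into the mitochondrial matrix, and hands them to ubiquinone, while a membrane arm pumps protons. Core subunits, encoded by nuclear and mitochondrial genes, do the chemistry, and accessory subunits surround them. Assembly factors build the complex from modules and do not stay in it. The heart is rich in the complex because contraction draws on respiration, and genes of the respiratory chain are commonly described as falling when the heart fails under load.

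RefSeq promoter windows (GRCm38.p6, 250 bases before to 50 after the annotated start) were found for 38 of the 43 genes and searched on both strands for 4 motifs of factors known to act at nuclear genes of the respiratory chain. The NRF-1 pattern, GCGCA, any base and then GCGC, occurred in 6 of 31 subunit windows (19.4%), in 2 of 6 assembly factor windows (33.3%) and in 4.78% of all 27025 windows. The ETS pattern bound by GABP, CCGGAAG, occurred in 4 of 31 subunit windows (12.9%), in 1 of 6 assembly factor windows (16.7%) and in 9.12% of all windows. AAGATGG, a pattern of YY1 that holds the ATG of a start codon, occurred in 7 of 31 subunit windows (22.6%), always after the start site, in 0 of 6 assembly factor windows and in 6.48% of all. AAGGTCA, the half-site of the ERR receptors, occurred in 2 of 31 subunit windows (6.45%), in 0 of 6 assembly factor windows and in 4.66% of all. A match is a run of letters and not a shown binding site, and the windows differ in base composition.

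The 120 bases before the start are printed, 5′ to 3′, for the 8 members with an NRF-1 or ETS match wholly inside them, so that the letters can be set beside the array values of these genes given further on. Capitals mark the match. On the minus strand lie Ndufs3 chr2:90904722-90904841, Ndufs6 chr13:73328483-73328602, Ndufa8 chr2:36049339-36049458, Ndufs5 chr4:123718187-123718306 and Ndufaf1 chr2:119662835-119662954. On the plus strand lie Ndufa11 chr17:56717642-56717761, Ndufb7 chr8:83566638-83566757 and Ndufaf4 chr4:24897963-24898082. The NRF-1 pattern is marked in Ndufs6, Ndufa8, Ndufa11, Ndufs5 and Ndufaf4, and the ETS pattern in Ndufs3, Ndufb7 and Ndufaf1. In Ndufs6 and Ndufa8 the pattern reads on the strand opposite to the printed one, so the capitals show its reverse complement.
Ndufs3: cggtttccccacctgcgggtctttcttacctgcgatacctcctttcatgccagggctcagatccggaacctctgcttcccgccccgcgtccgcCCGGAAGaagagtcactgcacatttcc
Ndufs6: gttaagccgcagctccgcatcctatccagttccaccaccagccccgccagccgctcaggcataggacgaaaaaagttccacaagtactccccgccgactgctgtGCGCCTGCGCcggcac
Ndufa8: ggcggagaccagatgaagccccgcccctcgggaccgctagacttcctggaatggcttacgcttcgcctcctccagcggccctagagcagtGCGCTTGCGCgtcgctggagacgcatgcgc
Ndufa11: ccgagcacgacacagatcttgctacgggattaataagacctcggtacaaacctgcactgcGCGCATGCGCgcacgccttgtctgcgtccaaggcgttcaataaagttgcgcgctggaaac
Ndufs5: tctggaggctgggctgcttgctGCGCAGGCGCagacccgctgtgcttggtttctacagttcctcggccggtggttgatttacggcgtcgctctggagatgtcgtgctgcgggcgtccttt
Ndufb7: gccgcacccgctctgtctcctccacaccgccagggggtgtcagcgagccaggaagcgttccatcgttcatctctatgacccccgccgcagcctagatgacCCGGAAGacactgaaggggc
Ndufaf4: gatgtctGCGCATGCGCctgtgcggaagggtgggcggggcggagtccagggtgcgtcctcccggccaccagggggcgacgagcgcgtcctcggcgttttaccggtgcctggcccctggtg
Ndufaf1: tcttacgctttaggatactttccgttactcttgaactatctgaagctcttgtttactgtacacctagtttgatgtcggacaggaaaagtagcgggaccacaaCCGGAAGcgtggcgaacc

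Signals are log2 values from RMA, and each difference or log2 fold change below is knockout minus wild type on that scale. The median signal of an array was 6.84 to 6.87. Fbxo32 gave 7.54 in wild type 1 against 5.65, 5.61 and 5.56 in knockouts 1, 2 and 3 (log2 fold change -1.93, SE 0.17, limma adjusted p = 0.0529), in the direction of the labels. Xist, the RNA of the inactive X chromosome, read 4.13 on wild type 1 and 3.20 on knockout 3, against 9.18 and 9.52 on knockouts 1 and 2, while Y-linked Eif2s3y read 8.57 and 8.49 against 3.31 and 3.64. By these transcripts wild type 1 resembles knockout 3, and genotype is partly confounded with that division, so values of knockout 3 alone are given beside the group medians. The heart label was checked against 16 adult cardiomyocyte markers, all of which passed the filter.

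Complex I subunit genes read slightly higher in the knockout hearts than in the wild type heart, and no member passed the test. For 33 of the 34 subunits the knockout mean lay above the wild type value, with a median log2 fold change of 0.205 against 0.00333 over all genes tested. All 3 knockout arrays lay above the wild type array for 21 subunits (61.8%) and below it for 0, where 23.9% of all genes tested lay above and 24.6% below. Among the 642 genes with a mean signal of at least 10, where 25 of the 34 subunits are found, 33.8% lay above and 25.5% below. With limma, adjusted by Benjamini-Hochberg over all genes tested, 0 of the 43 members passed 0.05 (adjusted p from 0.923 to 0.997), where 0.00671% of all genes passed, and 0 passed with a trended robust variance. An unadjusted p under 0.05 was reached by 0 members, where 1.68% of all genes did so as higher and 4.05% as lower. The largest subunit difference was 1.31-fold. Standard errors of the subunits ran from 0.17 to 0.28, and the misses do not show equal levels.

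The size of the difference depended on the knockout heart. Knockout 1 lay above wild type 1 for 34 of 34 subunits, knockout 2 for 32 and knockout 3 for 23, where 50.4%, 48.6% and 47.1% of all genes did. The medians were 0.25, 0.205 and 0.08. The highest of the 4 arrays was knockout 1 for 19 subunits and knockout 2 for 15, and it was never knockout 3 or wild type 1. Among all genes, knockout 1 was the highest of the knockout arrays for 32.6% and knockout 2 for 30.3%. Knockout 3 was the lowest of the knockout arrays for 25 subunits (73.5%), against 36.7% of all genes and 50% of genes with a mean of at least 10. Without knockout 3, 32 subunits lay above wild type 1 on both other arrays, and without knockout 1 the median was 0.128. The median range between knockout arrays was 0.35, wider than the median difference from wild type. For 2 subunits alone, Ndufv2 and Ndufb5, the gap from wild type 1 to the nearest knockout array exceeded the range of the knockout arrays.

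**Figure D1:**
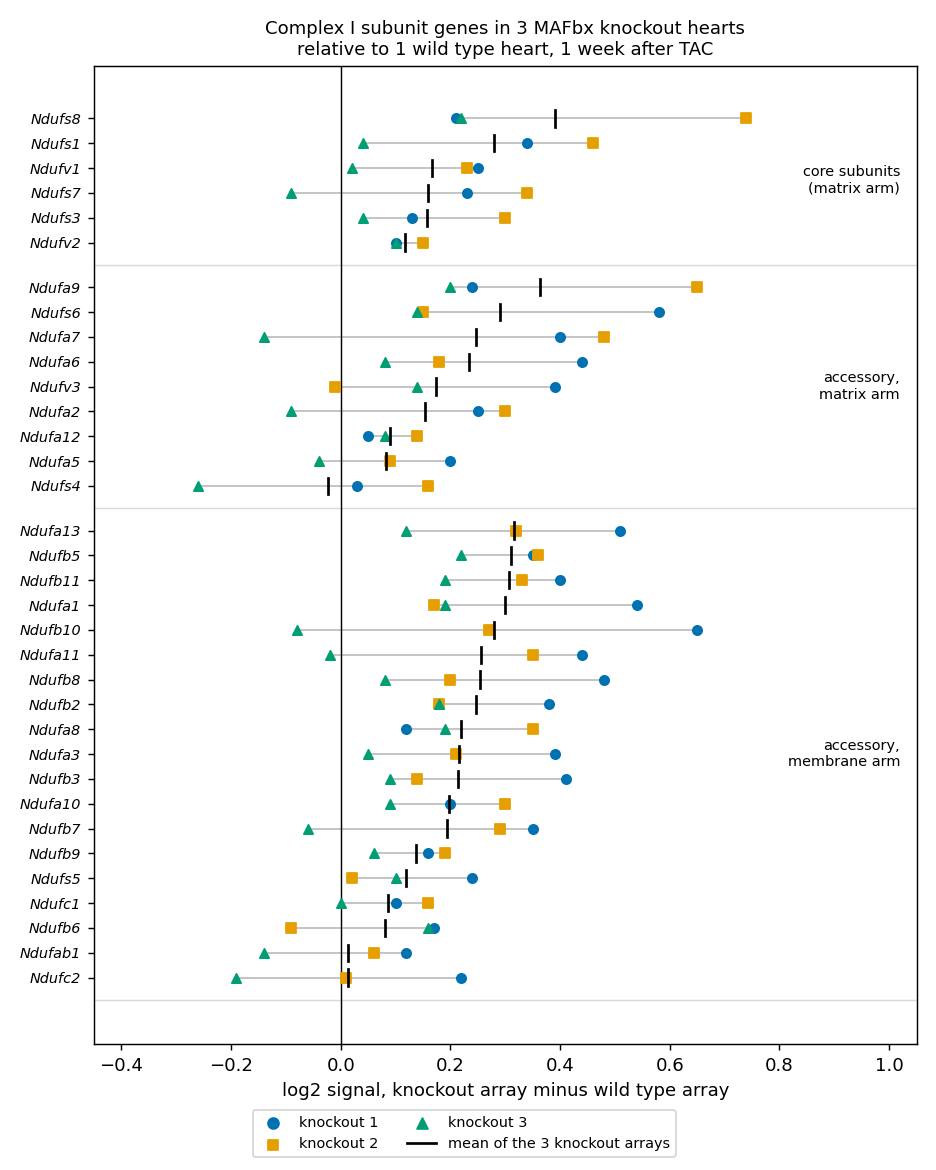
Log2 signal of each of the 34 complex I subunit genes on each knockout array minus the wild type array (x axis), grouped by place in the complex. Points are the 3 knockout arrays and the black tick is their mean. Knockouts 1 and 2 lie mostly to the right of 0, and knockout 3 lies nearer to it, above wild type for 23 genes.

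The core subunits of the matrix arm carry the flavin and the iron-sulphur clusters. Across the 6 measured here the median log2 fold change was 0.163. On every knockout array 5 (83.3%) lay above wild type 1, against 23.9% of all genes tested. Ndufs8, which holds a pair of clusters near the quinone site, read 9.48 on wild type 1 and 9.69, 10.22 and 9.70 on knockouts 1, 2 and 3. Knockout 2 stood apart here, and knockouts 1 and 3 were nearly level. The log2 fold change was 0.39 (SE 0.25, limma adjusted p = 0.925), with a knockout mean of 9.87 ± 0.30 (SD, n = 3).

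Ndufs1, the large subunit that carries several clusters, read 10.66 on wild type 1 and 11.00, 11.12 and 10.70 on the knockout arrays. Its log2 fold change was 0.28 (SE 0.22, limma adjusted p = 0.945), and knockout 3 lay within 0.04 of wild type 1. Ndufv1 binds the flavin and NADH, and it read 11.04 against 11.29, 11.27 and 11.06. Ndufv2, its partner with a cluster of its own, read 11.48 against 11.58, 11.63 and 11.58, the narrowest knockout spread of any subunit. Ndufs3, a subunit beside the quinone module, read 11.90 against 12.03, 12.20 and 11.94. Ndufs7, which holds the last cluster before ubiquinone, was the core subunit whose arrays overlapped, at 11.49 against 11.72, 11.83 and 11.40. Log2 fold changes of Ndufv1, Ndufs7, Ndufs3 and Ndufv2 were 0.17, 0.16, 0.16 and 0.12. In knockout 3 against wild type 1 the core median was 0.04, and in knockouts 1 and 2 it was 0.22 and 0.32.

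Among the 9 accessory subunits of the matrix arm the median log2 fold change was 0.173. On every knockout array 4 (44.4%) lay above wild type 1, against 23.9% of all genes tested. Ndufa9, which sits by the quinone site and binds a nucleotide, read 10.67 on wild type 1 and 10.91, 11.32 and 10.87 on the knockout arrays. As with Ndufs8, knockout 2 was the high array. The log2 fold change was 0.36 (SE 0.23, limma adjusted p = 0.923). Ndufs6, a zinc-binding subunit of the NADH-oxidising end and one of the printed NRF-1 promoters, read 10.56 against 11.14, 10.71 and 10.70, with knockout 1 the high array and a log2 fold change of 0.29 (SE 0.23). Ndufa6, an LYR-motif protein that holds an acyl carrier protein, read 10.73 against 11.17, 10.91 and 10.81 (0.23, SE 0.20).

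The other members of this group had arrays on both sides of wild type 1 or small differences. Ndufa7 read 7.35 against 7.75, 7.83 and 7.21, with a log2 fold change of 0.25 and a turned sign in knockout 3 (-0.14). Ndufv3, Ndufa2 and Ndufa12 gave 0.17, 0.15 and 0.09. Ndufa5 read 10.57 against 10.77, 10.66 and 10.53 (0.08). Ndufs4, a late-joining subunit whose loss causes a Leigh-like disease in mice, was the only subunit with a mean below wild type, at 11.48 against 11.51, 11.64 and 11.22. Its value of -0.02 became 0.0575 with renewed quantile normalization and 0.0067 with arrays centred on their medians, so it has no stable direction.

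The 19 accessory subunits of the membrane arm had a median log2 fold change of 0.217. On every knockout array 12 (63.2%) lay above wild type 1, against 23.9% of all genes tested. Ndufa13, also known as GRIM-19, read 9.22 on wild type 1 and 9.73, 9.54 and 9.34 on the knockout arrays. No knockout array overlapped the wild type value, and the log2 fold change was 0.32 (SE 0.21, limma adjusted p = 0.931). Ndufb5 read 11.67 against 12.02, 12.03 and 11.89 and had the lowest unadjusted p of all members (0.120, limma adjusted p = 0.923), with a log2 fold change of 0.31 (SE 0.18). Its 3 knockout arrays lay within 0.14 of each other and 0.22 or more above wild type.

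Ndufb11 and Ndufa1 are the X-linked members. Ndufb11 read 10.59 on wild type 1 and 10.99, 10.92 and 10.78 on the knockout arrays, a log2 fold change of 0.31 (SE 0.18). Ndufa1 read 10.44 against 10.98, 10.61 and 10.63, a log2 fold change of 0.30 (SE 0.21). For Ndufa1 knockout 2, with high Xist, and knockout 3, with low Xist, differed by 0.02, while knockout 1 stood 0.35 or more above both. For Ndufb11 knockouts 1 and 2, both with high Xist, read above knockout 3. A second probe set of Ndufb11 had the same order, at 10.83 and 10.93 against 10.54. In knockout 3 against wild type 1, both with low Xist, the difference was 0.19 for each gene, and 0.14 on the second probe set of Ndufb11. The part of the Xist division in these values was not tested.

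Ndufb10 had the widest knockout spread of the subunits, at 9.40 against 10.05, 9.67 and 9.32, and its log2 fold change of 0.28 (SE 0.28) turned to -0.08 in knockout 3. The smallest differences were those of Ndufc2 and Ndufab1, both at 0.01. Ndufc2 read 11.41 against 11.63, 11.42 and 11.22. Ndufab1, the mitochondrial acyl carrier protein that also serves fatty acid synthesis, read 11.36 against 11.48, 11.42 and 11.22. In both the knockout arrays fell on either side of wild type 1. The membrane arm members with printed promoters differed among themselves. Ndufa8, with the NRF-1 pattern, read 10.66 against 10.78, 11.01 and 10.85, all above wild type (0.22, SE 0.18). Ndufs5, with the same pattern, read 10.51 against 10.75, 10.53 and 10.61, with knockout 2 within 0.02 of wild type (0.12, SE 0.18). Ndufa11 read 10.49 against 10.93, 10.84 and 10.47 (0.26, SE 0.23), and Ndufb7, with the ETS pattern, read 10.67 against 11.02, 10.96 and 10.61 (0.19, SE 0.22). In both of these knockouts 1 and 2 were high and knockout 3 was just below wild type.

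Of the others, Ndufb8 read 10.61 against 11.09, 10.81 and 10.69, and Ndufa3 read 10.77 against 11.16, 10.98 and 10.82, with knockout 1 highest and knockout 3 lowest of the knockout arrays in both and no overlap with wild type. Ndufa10, a nucleoside kinase-like subunit, read 11.66 against 11.86, 11.96 and 11.75, also with no overlap. Ndufb6 was the exception among membrane arm subunits in that knockout 2 lay below wild type, at 11.44 against 11.61, 11.35 and 11.60. The membrane arm members not described singly above (Ndufb2, Ndufb3, Ndufb9 and Ndufc1) had log2 fold changes from 0.09 for Ndufc1 to 0.25 for Ndufb2.

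Knockout 1 exceeded knockout 2 for 14 of 19 membrane arm subunits and for 5 of 15 matrix arm subunits, against 50.7% of all genes tested. For the membrane arm the medians in knockouts 1, 2 and 3 were 0.35, 0.20 and 0.09. For the 15 matrix arm subunits they were 0.24, 0.23 and 0.04, and for the 9 accessory ones among them 0.25, 0.16 and 0.08. Ndufab1 was counted with the membrane arm alone, although Ndufa6 of the matrix arm also holds an acyl carrier protein. The difference between the arms was not tested.

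Ndufa4 and Ndufa4l2 are a paralogous pair, the first now counted with cytochrome c oxidase and the second known as a gene induced by low oxygen. Ndufa4 read 12.90 on wild type 1 and 13.09, 12.99 and 12.97 on the knockout arrays, a log2 fold change of 0.12 (SE 0.17) with no overlap. Ndufa4l2 read 7.64 against 7.64, 7.87 and 7.93, a log2 fold change of 0.17 (SE 0.19). It was the only one of the 43 members for which knockout 3 was the highest array.

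The Ndufaf assembly factors had a median log2 fold change of -0.05. On every knockout array 1 of 7 (14.3%) lay above wild type 1 and 0 below, where 23.9% of all genes lay above and 24.6% below. In knockouts 1, 2 and 3 the medians were -0.06, 0.14 and -0.25. Knockout 3 was the lowest knockout array for 7 of 7 members, where 36.7% of all genes had that order. Without knockout 3 the median was 0.035 and 3 of 7 lay above wild type 1 on both other arrays. No test of the difference between assembly factors and subunits was run.

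Ndufaf7, a methyltransferase that acts on a core subunit, read 7.49 on wild type 1 and 7.74, 7.99 and 7.53 on the knockout arrays. It was the only Ndufaf gene with no overlap, at a mean difference of 0.26 (SE 0.22; adjusted p = 0.957 in limma). Ndufaf3, which works with Ndufaf4 on the quinone module, read 8.22 against 8.49, 8.38 and 8.13 (0.11, SE 0.20). Ndufaf4 itself read 8.11 against 7.93, 8.17 and 7.83 (-0.13, SE 0.20), so the means of these partners lay on opposite sides of wild type, each by less than its error.

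Ndufaf1, a member of the assembly complex of the membrane arm, read 8.91 against 8.78, 9.05 and 8.37. The mean difference was -0.18 (SE 0.27; adjusted p = 0.992 in limma), with knockout 3 at -0.54, and without that array it was 0.005. Its partners Ecsit, Acad9 and Tmem126b, without the Nduf name, had log2 fold changes of 0.24, 0.09 and -0.0067. Timmdc1 and Tmem186, also counted with that assembly complex, had -0.10 and -0.12, with Timmdc1 below wild type 1 on every knockout array. For Ndufaf5, Ndufaf2 and Ndufaf6 the log2 fold changes were -0.0033, -0.05 and -0.09.

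Assembly factors without the Nduf name gave a similarly mixed picture. Of 13 listed, 12 were tested, with a median log2 fold change of 0.0467 and 0 past the limma test in either direction. On every knockout array 4 lay above and 3 below wild type 1 (33.3% and 25%, against 23.9% and 24.6% of all genes). The medians in knockouts 1, 2 and 3 were 0.13, 0.15 and -0.055, so the sign turned in knockout 3. Dmac2, a factor of the distal membrane arm, was highest at 0.35 (7.87 against 8.23, 8.46 and 7.98), and Tmem186 lowest at -0.12 (7.11 against 7.12, 7.09 and 6.77). Knockout 3 was the lowest knockout array for 11 of the 12 (91.7%), against 36.7% of all genes.

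**Figure D2:**
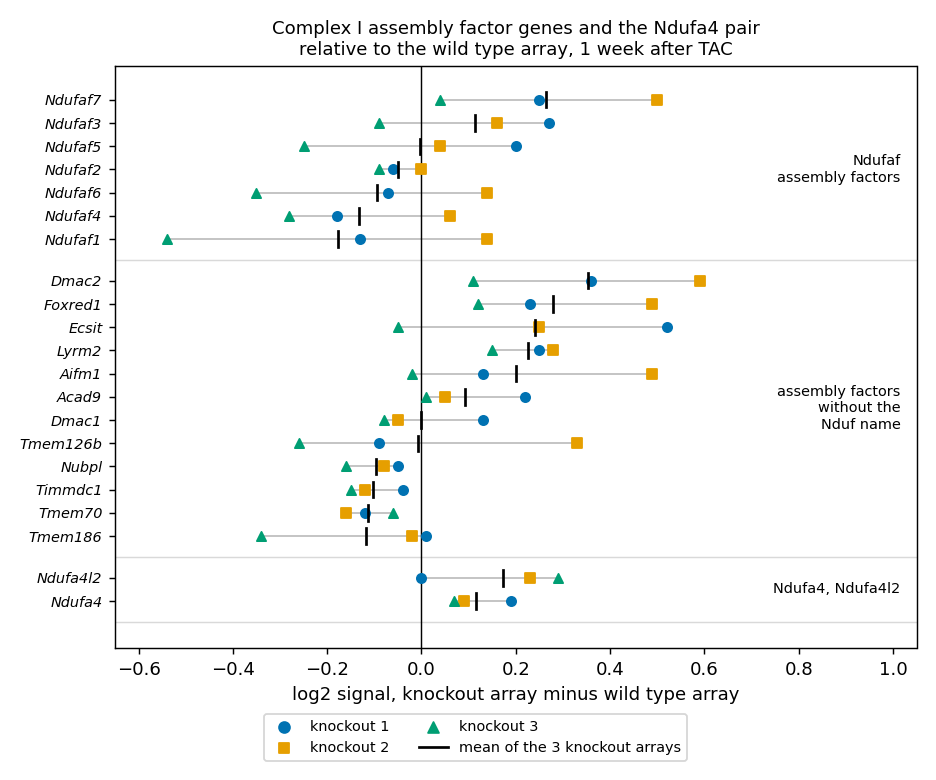
Log2 signal of assembly factor genes and of Ndufa4 and Ndufa4l2 on each knockout array minus the wild type array (x axis), with the mean of the 3 knockout arrays as a black tick. Knockout 3 is the lowest knockout array for all 7 Ndufaf genes, and their means lie on both sides of 0.

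Mean signals ran from 7.54 to 12.0 for subunits (median 10.8) and from 6.34 to 8.78 for Ndufaf genes (median 8.01), so both groups stand clear of the filter at 4.71. A probe set's log2 signal also reflects its probes, and these values give no order of transcript abundance.

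**Figure D3:**
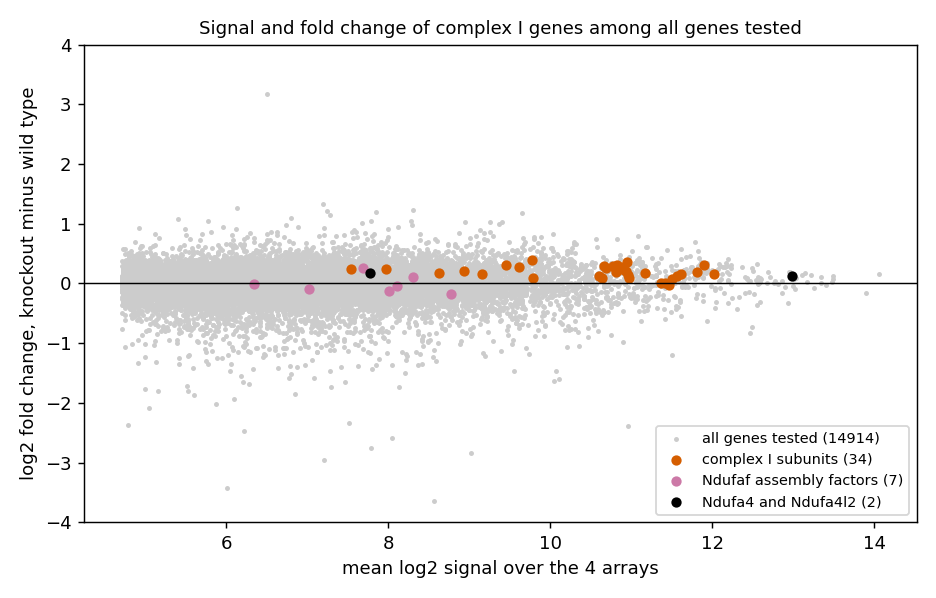
Log2 fold change (knockout minus wild type, y axis) against mean log2 signal over the 4 arrays (x axis) for all 14914 genes tested in grey, with the 34 subunits, 7 Ndufaf genes and the Ndufa4 pair in colour. Nearly all subunits lie just above 0 at high signal, within the cloud of other genes.

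Of the members 5 had a second probe set. For Ndufs3 the unused probe set gave 0.167 against 0.157, and for Ndufab1 it gave 0.04 against 0.0133. For Ndufc1 the values were 0.0067 and 0.0867, and for Ndufb11 they were 0.367 and 0.307. Ndufa11 differed most, with 0.12 for the unused and 0.257 for the used probe set, because knockout 2 lay 0.00 above wild type on the first and 0.35 on the second. The reference table lists 5 Nduf pseudogenes, among them copies of Ndufa11, Ndufab1, Ndufs5, Ndufs6 and Ndufa12, so signals of these genes could include a near-identical copy.

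Genes of the other respiratory complexes stood near the complex I subunits. Among 46 genes of complexes II to V the median log2 fold change was 0.18, and 32 (69.6%) lay above wild type 1 on every knockout array and 0 below, against 23.9% and 24.6% of all genes and 33.8% and 25.5% of genes with a mean of at least 10. The medians in knockouts 1, 2 and 3 were 0.255, 0.235 and 0.06. All 9 genes of complex III lay above wild type 1 on every knockout array (median 0.187), with Uqcr11, a small subunit, at 0.61 (limma adjusted p = 0.737), as did 13 of 14 genes of complex IV (median 0.19), with Cox6a1 at 0.78 (adjusted p = 0.534). For complex V the count was 8 of 16 (median 0.108), with Atp5l at 0.45 and the inhibitor Atpif1 at -0.06. For complex II it was 2 of 7 (median 0.197), with the iron-sulphur subunit Sdhb at 0.34 and the assembly factor Sdhaf2 at -0.07. None of the 46 passed the limma test adjusted over all genes, and 3 had an unadjusted p under 0.05, all higher, where 1.68% of all genes did. The lists differ in make-up. That of complex II holds the assembly factors Sdhaf1, Sdhaf2 and Sdhaf4 and that of complex V the inhibitor Atpif1, while the complex I subunits exclude assembly factors. Ndufa4 was not in the complex IV list. The difference between complex I and these complexes was not tested.

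Of the complex I genes of mitochondrial DNA only ND3 had a probe set with a single symbol. It read 12.82 on wild type 1 and 12.81, 12.84 and 12.79 on the knockout arrays, and its log2 fold change of -0.0067 turned to 0.130 with renewed quantile normalization and 0.0233 with centred arrays. Among 12 genes of iron-sulphur cluster assembly, which supplies the matrix arm, 1 lay above and 1 below wild type 1 on every knockout array. That is 8.33% each, where 23.9% of all genes lay above and 24.6% below. The median of these 12 genes was 0.07. It was 0.11 and 0.21 in knockouts 1 and 2 and -0.075 in knockout 3, where 10 of the 12 lay below wild type. Only 16.7% lay above it in knockout 3, against 47.1% of all genes. Iba57 was highest at 0.37 and Lyrm4 lowest at -0.17. The tricarboxylic acid cycle, whose dehydrogenases make the NADH that complex I oxidises, was represented by a list of 16 genes. Among them were Dlat, Pdha1 and Pdhb of the pyruvate dehydrogenase complex, which lies outside the cycle itself. The 16 genes had a median of 0.192, with Dlat highest at 0.33. On every knockout array 9 (56.3%), Dlat, Pdha1 and Pdhb included, lay above wild type 1 and 0 below, against 23.9% and 24.6% of all genes. Their medians were 0.205, 0.33 and 0.04 in knockouts 1, 2 and 3. None of these genes passed the limma test.

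The regulators of mitochondrial genes lay on both sides of wild type, with 0 past the limma test. Of 15 genes 4 lay above and 4 below wild type 1 on every knockout array (26.7% each, against 23.9% and 24.6% of all genes). Their median was 0.16, with 0.29 and 0.23 in knockouts 1 and 2 and -0.08 in knockout 3, where 11 of the 15 lay below wild type. In knockout 3 26.7% of them lay above it, against 47.1% of all genes. Ppargc1a, the coactivator PGC-1alpha, read 8.91 on wild type 1 and 9.32, 9.30 and 8.88 on the knockout arrays (0.26, SE 0.23). Like most subunits it was high in knockouts 1 and 2 and near wild type in knockout 3. Esrra, the receptor ERRalpha, read 7.71 against 8.0, 7.91 and 7.79 (0.19, SE 0.18). Ppara, a nuclear receptor of fatty acid oxidation, was highest at 0.52 (SE 0.28). Pprc1, the PGC-1-related coactivator, was lowest at -0.54 (SE 0.18, limma adjusted p = 0.690), with knockout values of 6.98, 6.79 and 6.85 all below the wild type 7.41. Of the factors whose motifs were searched, Nrf1, Yy1 and the GABP gene Gabpb1 lay below wild type 1 on every knockout array (-0.11, -0.20 and -0.22). Gabpa, the other GABP gene, gave 0.13, and the ERR genes Esrrg and Esrrb gave 0.48 and 0.45. Gabpa and Esrrb lay below wild type 1 in knockout 3. The relation of these values to the motif matches was not tested.

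Markers of other cells differed between the same arrays. Bulk RNA cannot tell fewer cells of a type from less RNA per cell. For comparison with the counts below, 23.9% of all genes tested lay above wild type 1 on every knockout array and 24.6% below. Among genes with a mean of at least 10, as all the cardiomyocyte markers have, the shares were 33.8% and 25.5%. An unadjusted limma p under 0.05 was reached by 1.68% of all genes as higher and 4.05% as lower. Of 16 cardiomyocyte markers 8 lay above and 1 below wild type 1 on every knockout array, with medians of 0.135, 0.17 and 0.005 in knockouts 1, 2 and 3 and a summed linear signal of 125180 in the wild type heart and 125130 to 135860 in the knockout hearts. Of 15 macrophage markers 13 lay below on every knockout array, with 8 of the 15 at an unadjusted p under 0.05 and 0 past the adjusted limma threshold, with medians of -1.07, -0.79 and -0.26 and a summed signal of 8440 in the wild type heart and 4307 to 6596 in the knockout hearts. The 10 fibroblast and matrix markers had medians of -0.79, -0.42 and 0.435 and a summed signal of 15925 against 9637 to 23149, with 3 above and 1 below on every knockout array. The 10 endothelial markers had medians of 0.22, 0.19 and 0.445, with 5 above and 0 below, and a summed signal of 4207 against 4655 to 5487. Of 7 smooth muscle and pericyte markers 1 lay above and 4 below, with medians of -0.28, -0.20 and -0.08 in knockouts 1, 2 and 3. Of these 7, 2 had an unadjusted limma p under 0.05 as lower, and 0 passed the adjusted threshold. For lymphocytes and neutrophils and for adipocytes 5 markers each passed the filter, with median log2 fold changes of 0.04 and 0.25. Their medians in knockouts 1, 2 and 3 were -0.15, -0.02 and 0.17 for the former and 0.28, 0.50 and -0.01 for the latter. Knockout 3, the closest to wild type in the subunit median, was also the closest in the macrophage median, and in matrix markers it lay above wild type where knockouts 1 and 2 lay below. The part of cell makeup in the subunit values was not tested.

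**Figure D4:**
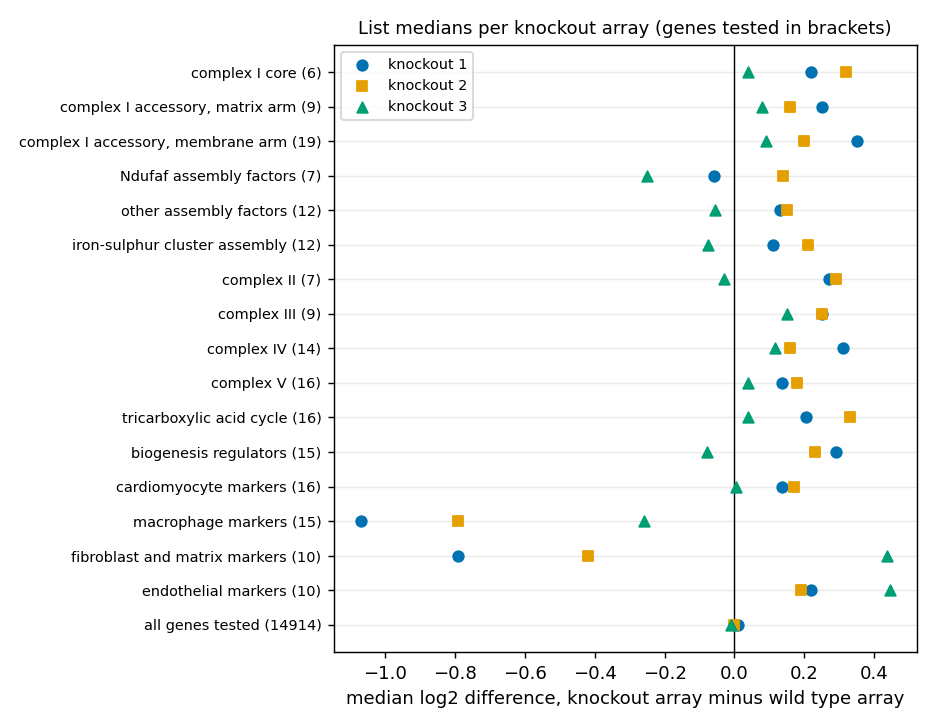
Median log2 difference of each gene list on each knockout array minus the wild type array (x axis), with the number of genes tested in brackets. Complex I subunits, the other respiratory complexes and the tricarboxylic acid cycle lie at or just above 0 in all knockouts (complex II is at -0.03 in knockout 3), Ndufaf genes fall on both sides, and macrophage markers lie below 0.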

How the data were processed

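The deposited table held log2 values for 35556 probe sets on 4 arrays, made by the authors with RMA in Affymetrix Expression Console (versions unstated), as the submitters' processing notes list them. RMA corrects background, quantile-normalizes and summarises probes. RMA removes a change shared by most genes and compresses differences between dim ones.

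Of the probe sets 21789 had 1 symbol in the platform annotation, 1621 had several and 12146 were unlisted or had no symbol. Genes with several probe sets were represented by the one with the highest mean. Those with a mean under the 25th percentile (4.71) were left out. The test was that of limma 3.58.1 under R 4.3.3 (lmFit and eBayes, two-sided, knockout minus wild type, Benjamini-Hochberg over 14914 genes, threshold 0.05), with 2 residual and 5.04 prior degrees of freedom. The fit takes the spread of the knockout arrays for the lone wild type array too. An exact permutation test of 1 against 3 arrays cannot go below 0.25. The fit was tested on simulated data.

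The members and lists were chosen with earlier results of these data known. Lists are described by counts and medians, with no set test. Fully described are the core subunits, the accessory subunits of each arm with the 4 highest and 2 lowest log2 fold changes, the 2 highest and 2 lowest Ndufaf genes, the 2 subunits of widest knockout spread, X-linked members, Ndufa4, Ndufa4l2, Ndufab1, Ppargc1a, Esrra and, of each respiratory list, the highest gene and the lowest where it lay below wild type. Other members are named to account for them. Promoters are RefSeq sequences, searched by exact match. Precision is limited by having 4 arrays.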

Additional observations from a re-analysis of the deposited data

How the results depend on the processing

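No member passed the limma threshold under any alternative run, with the smallest adjusted p at 0.463 (without knockout 3). Over all genes the count past it was 1, and it was 0 with renewed quantile normalization or no filter, 2 with a filter at the median, 11 with a trended robust variance, 11 at an adjusted p under 0.1 and 0 to 0 when leaving out a knockout array. The subunit median kept its sign under renewed quantile normalization (0.257), centring, other filters and averaged probe sets, was 0.128 to 0.278 without a knockout array and was 0.08 in knockout 3 against wild type 1 alone. The number of subunits above wild type on all knockout arrays used was 21 to 32 without a knockout array. The Ndufaf median was -0.105 to 0.035 and their count 1 to 3 without a knockout array, and the median was -0.25 in knockout 3 alone. The cause of these changes was not tested.

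Signs turned for some genes. In knockout 3 against wild type 1 alone the differences were -0.04 for Ndufa5, -0.14 for Ndufa7 and Ndufab1, -0.09 for Ndufaf3 and Ndufs7, -0.08 for Ndufb10, -0.19 for Ndufc2, -0.03 for Ppargc1a, -0.01 for Iba57 and 0.06 for Atpif1. Leaving out each knockout array in turn gave -0.04 to 0.09 for Ndufab1, -0.09 to 0.115 for Ndufc2, -0.335 to 0.005 for Ndufaf1, -0.115 to 0.095 for Ndufs4, -0.02 to 0.005 for ND3 and -0.115 to 0.045 for Atpif1. Renewed quantile normalization gave 0.0575 for Ndufs4, 0.130 for ND3 and 0.015 for Atpif1, centring gave 0.0067 for Ndufs4 and 0.0233 for ND3, and averaging probe sets gave 0.025 for ND3.

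No paired analysis was possible because the wild type group has 1 array and shares 1 replicate number with the knockout group.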
